A study of Homo sapiens with 12 samples.

Results

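Knockout of FMR1 was set against wild type in SH-SY5Y cells grown in light medium, a comparison of 6 of the 12 sequenced libraries. The 6 were taken by their labels: 3 wild-type cultures and 1 culture of each of 3 FMR1-knockout lines that were generated independently, here called lines 1, 2 and 3. SH-SY5Y is a widely used human neuroblastoma line that resembles early sympathetic nerve cells. All cultures had spent 2 weeks in SILAC medium on a DMEM:F-12 base with dialyzed fetal bovine serum; light medium carried ordinary L-lysine and L-arginine, and the other 6 libraries, of the same genotypes and lines, came from heavy medium, in which both amino acids were labelled with stable isotopes. Each knockout library stands for 1 line, so spread among the 3 is spread between lines. Nothing in the labels says that the wild-type cultures were derived separately, so the wild-type spread may be technical. The p-values below rest on that spread together with the spread between lines. Each line also went through its own making and expansion, which cannot be told apart from the loss of FMR1.

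The FMR1 product, FMRP, binds mRNAs and ribosomes in neurons and represses the translation of many of its targets. Its loss causes fragile X syndrome, an inherited intellectual disability. FXR1 and FXR2 are its paralogs. RNA-seq measures transcript levels and does not show translation, so effects of FMRP on protein output are outside these data.

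The light libraries held between 25935152 and 40257027 counts, and levels below are CPM, each count scaled to a common library size with TMM factors of 0.992 to 1.011. In heavy medium the library of line 1 stood apart: its FMR1 level was 58.4% of the heavy wild-type mean, so counts of heavy calls are given with and without it. Mitochondrially encoded transcripts took 11.6% to 12.2% of the counts in the knockout lines and 10.1% to 10.5% in wild type. Markers of sympathoadrenal neuroblastoma summed to between 10716 and 11295 CPM in wild type and between 8549 and 10152 CPM in the lines, with 0 of 13 called by edgeR, 5 at an unadjusted p under 0.05 (25.2% of all tested genes) and 4 called by DESeq2 (10.5% of them). The noradrenaline-synthesising enzyme DBH had 2225 to 2466 CPM in wild type and 957 to 1714 CPM in the lines (adjusted p = 0.103, edgeR), while TH, which makes its precursor, stayed at or under 1.04 CPM in all 6 libraries. The defining genes SOX10 (Schwann cells and glia), DCN and PRRX1 (fibroblasts) and PTPRC (blood) were at 0 in all 6. Fibroblast and mesenchymal markers summed to 204 to 209 CPM in wild type and 162 to 188 CPM in the lines, mostly from THY1 and PDGFRB. Of the 5 tested 1 was called, PDGFRB, with 83.2 to 86.9 CPM in wild type and 59.2 to 71.3 CPM in the lines. Its log2 fold change was -0.40 (edgeR adjusted p = 0.0497), and with 1 library left out the adjusted p reached 0.26. THY1 had 116 to 121 CPM in wild type and 103 to 113 CPM in the lines. Epithelial markers summed to 3.30 to 3.68 CPM and 4.71 to 7.59 CPM. Schwann and glial markers stood at 1.91 to 2.05 CPM in wild type and at 3.35, 4.16 and 1.65 CPM in lines 1, 2 and 3.

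FMR1 transcript (ENSG00000102081.14, plus strand of chromosome X from 147911951 to 147951125 in GRCh38) was lower in every knockout line. The wild-type libraries had 37.3, 36.6 and 37.4 CPM, and lines 1, 2 and 3 had 11.3, 11.5 and 9.05 CPM. The groups were far apart, and the 3 lines lay within a narrow band of each other. The log2 fold change was -1.81 (SE 0.103, edgeR quasi-likelihood test, adjusted p = 0.000404). Each line thus still had reads of the transcript; protein was not analysed here. The paralogs FXR1 (log2 fold change -0.10, SE 0.055, edgeR adjusted p = 0.281) and FXR2 (-0.07, SE 0.0706, adjusted p = 0.549) did not pass the test. Among 13 transcripts of FMRP and its close partners, edgeR called 1, FMR1, DESeq2 called 3, and 5 had an unadjusted p under 0.05. FMR1, the targeted gene, is in each of these counts. Over all tested genes the shares were 1.44%, 10.5% and 25.2%. All 3 lines lay below the wild-type range in 7 of the 13 and above it in 0, beside 15.1% and 15.2% of all tested genes.

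Of 16010 genes tested in the 6 libraries, 231 were called (1.44%) at an edgeR adjusted p under 0.05. Higher in knockout were 145 (0.906%) and lower were 86 (0.537%). The median log2 fold change was 1.15 among the higher genes and -0.68 among the lower genes, against -0.01 over all genes tested. At least 2-fold up were 82 genes and at least 2-fold down 29. In all 231 the knockout libraries lay outside the wild-type range, as they did for 30.3% of all tested genes. Called higher genes had a median level of 3.40 log2 CPM and called lower genes 4.78, beside 4.20 for all tested genes. Protein-coding genes made up 86.4% of the 228 called genes with an annotated type and 81.2% of tested genes with one. The number of calls depended on the tool and on single libraries: DESeq2 called 1715 and limma-voom 135, and leaving out 1 library gave 24 calls without line 1, 71 without line 2, 6240 without line 3 and 4, 4 and 5 without wild-type library 1, 2 or 3. FMR1, GPRASP2, ARMCX5-GPRASP2 and DNAJC15 were called in each of these 6 fits. The other 48 called genes named by rule lost their call in at least 1 of them, with highest adjusted p between 0.0692 and 0.269 (edgeR).

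**Figure D1:**
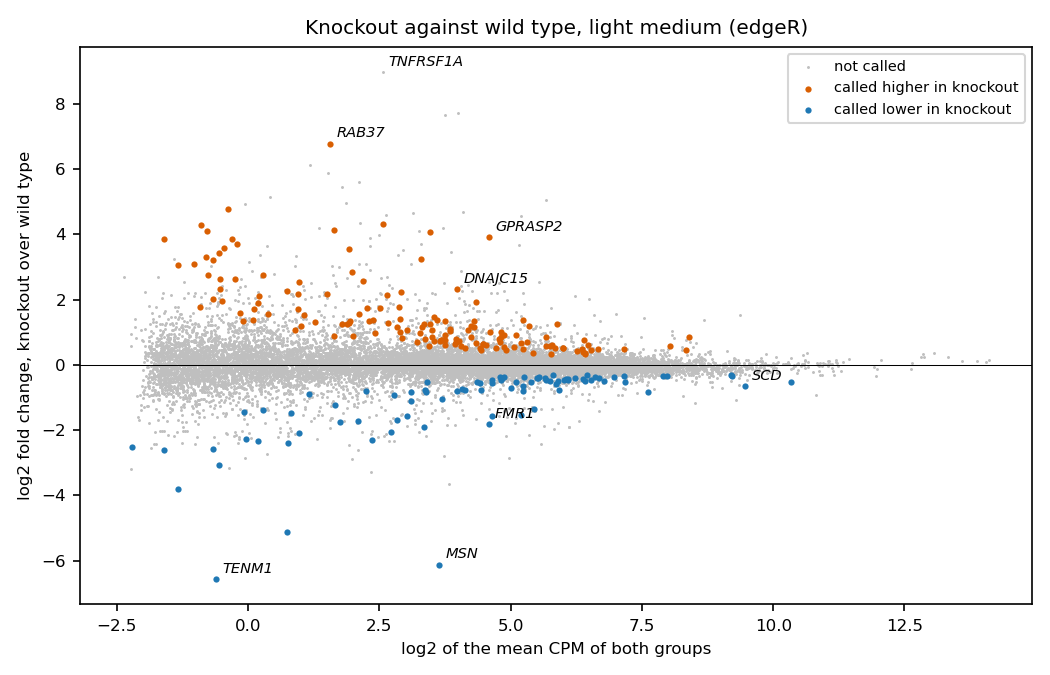
Fitted log2 fold change (knockout over wild type, y axis) of every tested gene against its mean level in log2 CPM (x axis) in the 6 light libraries, with called genes coloured by direction. The 145 higher and 86 lower genes span the range of levels, with RAB37 and GPRASP2 among the higher genes and TENM1 and MSN at the bottom.

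GPRASP2 had the smallest p of all 16010 genes, and its neighbour GPRASP1 rose with it. GPRASP1 and GPRASP2 encode related proteins that bind G protein-coupled receptors after endocytosis and steer them between recycling and lysosomal breakdown. The promoters of both are shown because the genes neighbour each other and rose together. RefSeq windows of 300 bases (GRCh38.p14, plus strand, 5′ to 3′) run from 250 bases before to 50 after the start, at chrX:102651233-102651532 for GPRASP1 and chrX:102712198-102712497 for GPRASP2, with each CG dinucleotide in capitals.
GPRASP1 promoter: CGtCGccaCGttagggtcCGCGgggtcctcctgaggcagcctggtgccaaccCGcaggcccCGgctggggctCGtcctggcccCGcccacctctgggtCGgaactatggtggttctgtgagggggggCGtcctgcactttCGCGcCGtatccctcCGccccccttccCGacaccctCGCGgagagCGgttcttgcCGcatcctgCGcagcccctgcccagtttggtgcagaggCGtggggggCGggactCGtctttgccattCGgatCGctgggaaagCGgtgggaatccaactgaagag
GPRASP2 promoter: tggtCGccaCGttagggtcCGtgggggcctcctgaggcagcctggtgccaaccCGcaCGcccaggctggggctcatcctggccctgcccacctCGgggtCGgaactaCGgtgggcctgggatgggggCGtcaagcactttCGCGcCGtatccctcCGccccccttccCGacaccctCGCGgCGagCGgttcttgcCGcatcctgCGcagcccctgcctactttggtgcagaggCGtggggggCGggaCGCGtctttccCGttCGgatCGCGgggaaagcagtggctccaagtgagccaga
The windows hold 27 and 28 CG dinucleotides, the same on both strands since CG reads alike on each; 28.1% and 26.1% of all 34943 RefSeq promoter windows hold as many or more. Aligned to each other they match at 271 of 296 bases (91.6%). DNA methylation was not analysed here.

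GPRASP2 (chromosome X, 102712176 to 102717733, plus strand) had 2.58, 3.08 and 3.30 CPM in wild type and 44.9, 53.2 and 37.8 CPM in lines 1, 2 and 3. Every line was above every wild-type library by a wide margin, a 15.1-fold rise (log2 fold change 3.92, SE 0.157, edgeR adjusted p = 9.16e-05). GPRASP1 (chromosome X, 102651366 to 102659083, plus strand) went from 1.11, 1.17 and 1.42 CPM to 23.1, 25.2 and 13.9 CPM. Line 3 was the lowest of the lines for both genes. The log2 fold change of GPRASP1 was 4.07 (SE 0.261, edgeR adjusted p = 0.00163), with an adjusted p of 0.0692 without wild-type library 1 and 0.058 without wild-type library 2. The read-through transcript ARMCX5-GPRASP2, which spans both, rose from 0.588, 0.497 and 0.693 CPM to 7.01, 7.36 and 6.60 CPM (log2 fold change 3.56, SE 0.185, edgeR adjusted p = 0.000292). It shares exons with GPRASP2, so reads of these 2 features may have been split between them. Of the 23 tested GPRASP, ARMCX and neighbouring genes of Xq22, GPRASP1 and GPRASP2 rose and 0 fell, with a list median of 0.23 (log2) beside -0.01 for all genes.

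DNAJC15 encodes a J-domain protein of the inner mitochondrial membrane that works with the protein import motor and lowers respiratory chain activity. Its promoter is shown because it was the other gene called in each leave-one-out fit (chr13:43023336-43023635, GRCh38.p14, plus strand, 5′ to 3′, RefSeq, CG in capitals).
DNAJC15 promoter: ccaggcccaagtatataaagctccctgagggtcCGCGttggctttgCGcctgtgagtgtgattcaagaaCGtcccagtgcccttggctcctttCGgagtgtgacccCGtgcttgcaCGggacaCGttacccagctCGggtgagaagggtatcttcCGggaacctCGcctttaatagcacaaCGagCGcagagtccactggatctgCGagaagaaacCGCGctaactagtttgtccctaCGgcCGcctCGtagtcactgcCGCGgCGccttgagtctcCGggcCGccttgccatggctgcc
It holds 24 CG dinucleotides, and 33.8% of all windows hold as many or more. DNAJC15 (chromosome 13, 43023203 to 43114224, plus strand) had 5.26, 5.42 and 5.08 CPM in wild type and 28.4, 20.5 and 30.2 CPM in the lines, and line 3 was the highest here. The log2 fold change was 2.33 (SE 0.152, edgeR adjusted p = 0.000924).

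Among called genes with a mean of at least 1 log2 CPM, the other 8 of the 12 largest rises were CHST8, CLU, P2RX5, ME3, ZNF662, NECAB1, CCDC3 and LRRC61. CHST8, a Golgi sulfotransferase that modifies the sugars of glycoprotein hormones, had 0.817, 0.398 and 0.495 CPM in wild type and 16.1, 13.6 and 4.37 CPM in the lines, so that line 3 was well under the other lines (log2 fold change 4.33, SE 0.613, edgeR adjusted p = 0.0427). CLU, the secreted chaperone clusterin, had 1.83, 1.74 and 2.08 CPM against 17.1, 27.0 and 9.10 CPM (log2 fold change 3.23, adjusted p = 0.0325, edgeR). P2RX5, a subunit of ATP-gated cation channels, had 0.882, 1.14 and 0.825 CPM against 8.50, 8.09 and 4.10 CPM (log2 fold change 2.84, adjusted p = 0.0174, edgeR). In CHST8, CLU and P2RX5 line 3 was nearest to wild type. Groups that do not overlap were a condition for naming the rises and falls, so their separation is not a result. ME3, the mitochondrial NADP-dependent malic enzyme, rose by 2.56 on the log2 scale. NECAB1, a neuronal calcium-binding protein, rose by 2.16, and CCDC3, a secreted protein, by 2.14. The zinc-finger gene ZNF662 rose by 2.22 and LRRC61 by 1.93. Line 3 was the lowest line in 9 of the 12 rises.

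MSN had the largest fall among called genes with a mean of at least 1 log2 CPM. It encodes moesin, which ties cortical actin filaments to membrane proteins together with its relatives ezrin and radixin. RefSeq gives 2 starts; the window of the downstream one is shown because it is the CG-rich one, with 29 CG dinucleotides against 7 in the other (chrX:65667404-65667703, GRCh38.p14, plus strand, 5′ to 3′, CG in capitals).
MSN promoter, downstream start: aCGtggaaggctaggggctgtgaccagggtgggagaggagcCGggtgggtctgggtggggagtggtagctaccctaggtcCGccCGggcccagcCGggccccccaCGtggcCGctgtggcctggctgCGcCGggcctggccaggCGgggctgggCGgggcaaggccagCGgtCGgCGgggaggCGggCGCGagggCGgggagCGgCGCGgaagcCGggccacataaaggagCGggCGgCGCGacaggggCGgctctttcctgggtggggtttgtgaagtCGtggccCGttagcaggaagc
MSN (ENSG00000147065.16; chromosome X, 65588377 to 65741931, plus strand) had 24.0, 25.0 and 24.4 CPM in wild type and 0.113, 0.116 and 0.745 CPM in lines 1, 2 and 3. All lines were under 1 CPM, and line 3 was well above the other lines. The log2 fold change was -6.12 (SE 0.524, edgeR adjusted p = 0.0198). In heavy medium, line 1 had 10.9 CPM of MSN, 46.3% of the heavy wild-type mean.

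Under the same limit on level, the other 10 of the 12 largest falls, beside MSN and FMR1, included genes of neuronal surfaces and matrix. UNC5D, a netrin receptor of the axon guidance machinery, had 17.0, 15.2 and 16.0 CPM in wild type and 3.46, 3.81 and 5.54 CPM in the lines (log2 fold change -1.91, SE 0.177, edgeR adjusted p = 0.00674). PTPRD, a receptor tyrosine phosphatase that organises synapses, had 11.8, 11.8 and 12.7 CPM and 4.08, 3.54 and 4.63 CPM (log2 fold change -1.56, SE 0.133, edgeR adjusted p = 0.0042). TFPI2, a secreted inhibitor of serine proteases found in the matrix, had 57.3, 54.6 and 50.9 CPM and 13.5, 16.3 and 26.2 CPM (log2 fold change -1.54, SE 0.242, edgeR adjusted p = 0.0489). Line 3 was the least changed in each of these, and the separation of the groups was again a condition of the choice. The neural cell adhesion molecule NCAM2 fell by 1.73 on the log2 scale, the matrix proteoglycan versican (VCAN) by 1.69 and the secreted guidance cue SEMA3C by 1.35. NHS, a regulator of actin remodelling, fell by 2.06, LDLRAD4, an inhibitor of TGF-beta signalling, by 1.74, and the lipid phosphatase PLPP3 by 1.58. RNF212, known from meiotic recombination, fell by 2.30. Line 3 was the highest line in 9 of the 12 falls, a set that holds MSN and FMR1. In FMR1 itself line 3 was the lowest line.

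**Figure D2:**
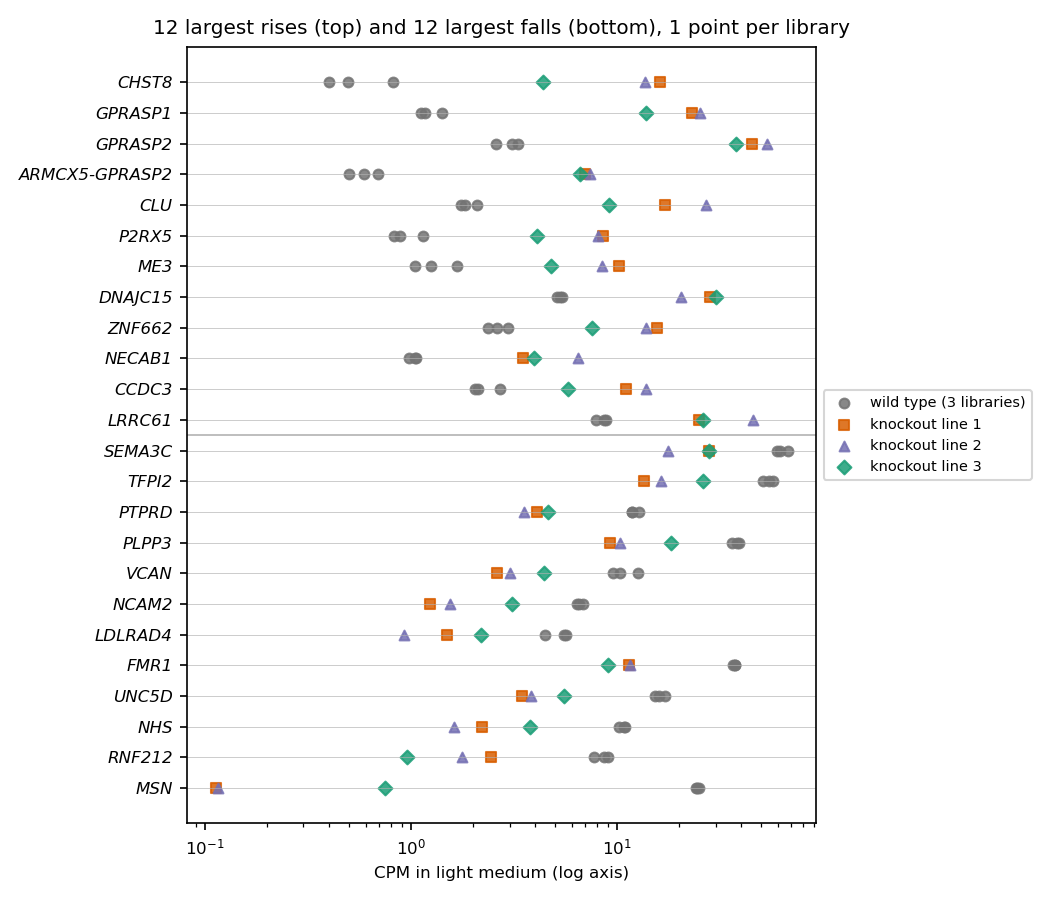
Levels in CPM on a log axis of the named rises and falls in each of the 6 light libraries, wild type in grey and each knockout line by its own symbol. Genes were chosen so that the 3 lines lie on 1 side of the 3 wild-type libraries. MSN falls from 24.0 to 25.0 CPM to under 1 CPM.

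In 3 genes, 1 group had next to no reads. TENM1, an X-linked teneurin that takes part in synaptic adhesion, had 44, 47 and 39 counts in wild type and 0, 0 and 1 in lines 1, 2 and 3. After scaling, wild type was 127 times knockout (95% exact interval 22.5 to 5067, counting error only; edgeR adjusted p = 0.0042). The RAB family GTPase RAB37 went the other way, with 1, 2 and 2 counts in wild type and 240, 238 and 63 in the lines, 110 times wild type (interval 47.1 to 342; edgeR adjusted p = 0.0355). TNFRSF1A, the main receptor for tumour necrosis factor, had 0, 1 and 1 counts in wild type and 668, 376 and 76 in the lines. It was not called by edgeR (adjusted p = 0.0658) although the groups were far apart, and line 3 was well under lines 1 and 2. DESeq2 called TNFRSF1A (adjusted p = 8.7e-13) and limma-voom did not (adjusted p = 0.188).

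The 3 lines did not differ from wild type to the same extent. Relative to the wild-type mean, line 1 had 739 genes at least 2-fold higher and 654 at least 2-fold lower. For line 2 the numbers were 845 and 685, and for line 3 they were 212 and 182. A wild-type library differed from the mean of the other 2 in 108 to 166 genes. The root mean square of the log2 difference from the wild-type mean over tested genes was 0.728, 0.735 and 0.359 for lines 1, 2 and 3, beside 0.239 to 0.264 between wild-type libraries. Lines 1 and 2 differed from each other in 449 genes, and from line 3 in 1139 and 1294. All 3 were measured against the same wild-type libraries. All 3 lines were at least 2-fold above in 136 genes (0.849% of tested) and below in 77 (0.481%); 79 of these genes were called. In 529 genes lines 1 and 2 were at least 2-fold away on the same side while line 3 lay within 0.5 (log2) of wild type, and edgeR called 0 of these, with 306 at an unadjusted p under 0.05 and 195 called by DESeq2. Over the 231 called genes the median size of the log2 difference was 0.995 in line 1, 1.08 in line 2 and 0.698 in line 3. Line 3 differed least in 189 of the 231 (81.8%), against 59.9% of all tested genes.

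**Figure D3:**
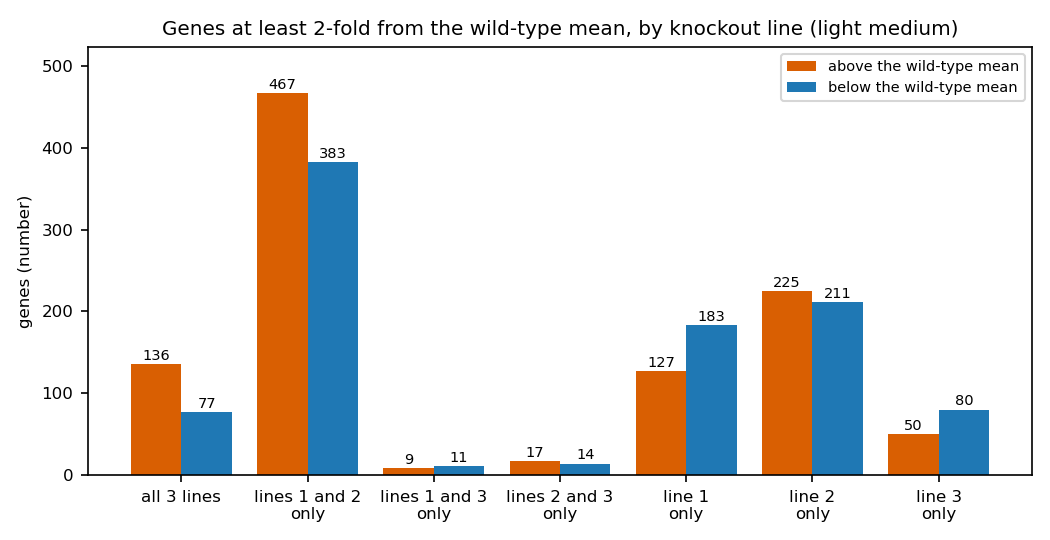
Number of tested genes at least 2-fold above or below the wild-type mean (bars, from 0), split by which knockout lines show it. The bars for lines 1 and 2 together without line 3 stand at 467 above and 383 below; all 3 lines together stand at 136 and 77.

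Some genes differed in 1 line alone: 13 in line 1, 22 in line 2 and 6 in line 3 were at least 2-fold away while both other lines lay within 0.5 (log2) of wild type. ST6GAL1, a Golgi sialyltransferase, had 11.6 to 13.3 CPM in wild type, 10.5 and 11.4 CPM in lines 2 and 3 and 0.113 CPM in line 1. NEXMIF, an X-linked gene of neurite growth, had 11.1 to 12.5 CPM in wild type and 0.338 CPM in line 1. In heavy medium line 1 had 5.49 CPM of ST6GAL1 and 4.85 CPM of NEXMIF. The neighbouring cancer-testis genes MAGEA12 and CSAG1 stood at 116 and 43.8 CPM in line 1, against wild-type means of 42.0 and 14.1 CPM; both have near-identical relatives, so their counts are uncertain. In line 2 the pseudokinase gene TRIB2 had 103 CPM against 34.6 to 38.2 CPM in wild type, and the RNA-editing family gene ADARB2 had 7.98 CPM against a wild-type mean of 2.13 CPM. The autophagy gene GABARAPL1 (3.20 CPM against 7.97 to 10.4 CPM) and the adhesion receptor ADGRE5 (2.35 CPM against 5.87 to 6.93 CPM) were lower in line 2. In line 3 the growth factor IGF2 had 3.54 CPM against 9.97 to 11.3 CPM in wild type, and LINC02575 had 5.51 CPM against 14.7 to 17.7 CPM. The stress cytokine GDF15 stood at 5.75 CPM against 1.41 to 1.89 CPM, and the host gene of miR-34a, MIR34AHG, at 6.57 CPM against 2.55 to 3.48 CPM. Heavy-medium libraries of lines 2 and 3 had like values for TRIB2 (94.2 CPM), ADARB2 (8.26 CPM), GABARAPL1 (3.27 CPM), GDF15 (5.93 CPM) and IGF2 (4.73 CPM), and for LINC02575 (5.43 CPM). MIR34AHG did not stand out there, with 4.13 CPM in line 3 against 3.25 to 3.61 CPM in heavy wild type. These genes were chosen for their pattern, so no test is given.

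Gene lists were drawn up from general knowledge with earlier results of these data known, and are described by counts and medians. Over the 36 lists, 34 of 854 distinct tested genes were called (3.98%), beside 1.44% of all tested genes. List medians below are log2 fold changes, to be read beside -0.01 for all genes, and "outside the range" means that all 3 lines lay beyond the wild-type libraries, which 15.2% of tested genes did above and 15.1% below.

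In lists where edgeR made 0 calls, the number at an unadjusted p under 0.05 and the number called by DESeq2 are also given. The same is given for the long FMRP-ligand mRNAs. Over all 16010 genes these numbers made up 25.2% and 10.5%.

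Of 30 axon guidance genes 4 fell and 0 rose (median -0.22): UNC5D, SEMA3C, EFNA5 and SEMA3A. SEMA3A, a repulsive semaphorin, had 3.14, 3.21 and 3.20 CPM in wild type and 0.591, 0.501 and 1.09 CPM in the lines, a log2 fold change of -2.10 (edgeR adjusted p = 0.023). The ephrin EFNA5 fell by 0.53 (adjusted p = 0.0325). Of 28 neural adhesion genes 3 fell (NCAM2, PTPRD and the protocadherin PCDH18, -0.83) and 2 rose. The 2 were NRCAM, which holds together nodes of Ranvier and guides axons, with 203 to 225 CPM in wild type and 301 to 336 CPM in the lines (log2 fold change 0.57, adjusted p = 0.0198), and CADM3 (0.65, adjusted p = 0.043). Among 33 extracellular matrix genes 2 fell, VCAN and TFPI2, and 0 rose (median -0.25, with line medians of -0.46, -0.58 and -0.07 in lines 1, 2 and 3).

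Of 31 synaptic vesicle genes 1 rose, SYT4, and 0 fell. In this list, which covers transmitter release, 14 lay above the wild-type range in all 3 lines and 0 below it, and the median was 0.35. SYT4, a vesicle protein of dense-core granules, had 72.2, 67.4 and 71.0 CPM in wild type and 112, 91.5 and 117 CPM in the lines (log2 fold change 0.61, edgeR adjusted p = 0.0286). The line medians were 0.45, 0.40 and 0.11, so line 3 again showed the smallest shift. Among 31 voltage-gated channel genes 0 were called (9 at unadjusted p under 0.05, 8 by DESeq2), the nearest being CACNA1G, a T-type calcium channel (-1.08, adjusted p = 0.06). Of the 29 neuronal cytoskeleton genes 0 were called (12 and 6 by the same measures), and the median was 0.05.

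The adrenergic and catecholamine list held 29 tested genes, with 2 rises, 1 fall and a median of 0.01. RET, the GDNF-family receptor tyrosine kinase, had 36.4, 38.0 and 34.1 CPM in wild type and 64.9, 79.3 and 52.8 CPM in the lines (log2 fold change 0.86, edgeR adjusted p = 0.0388). SCG2, a granin of secretory granules, rose by 0.36 (adjusted p = 0.0452). INSM2, a zinc-finger factor of neuroendocrine cells, fell from 281, 238 and 235 CPM to 148, 128 and 150 CPM (log2 fold change -0.82, adjusted p = 0.0169). Of 17 genes of the mesenchymal type of neuroblastoma cell, S100A6, a calcium-binding protein, rose by 1.38 (edgeR adjusted p = 0.0169), and 0 fell. The median of this list was -0.11, with line medians of -0.34, -0.07 and 0.13 in lines 1, 2 and 3. Above the wild-type range in all 3 lines were 6 members, and below it 4. S100A6 also stands in the list of actin membrane linkers, where it and ARPIN, an Arp2/3 inhibitor (1.20, adjusted p = 0.0471), rose and MSN fell among 26.

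Of 16 interferon-stimulated genes 2 rose and 0 fell (median 0.30): OAS3, an antiviral synthetase activated by double-stranded RNA, went from 9.77 to 12.3 CPM in wild type to 29.1, 32.2 and 23.6 CPM (log2 fold change 1.35, edgeR adjusted p = 0.00985), and ISG15 from 0.224 to 0.261 CPM to 1.04, 0.771 and 0.639 CPM (1.77, adjusted p = 0.0479). MYD88, the adaptor of Toll-like and interleukin-1 receptors, had 17.4 to 19.5 CPM in wild type and 36.3, 41.8 and 34.5 CPM in the lines (log2 fold change 1.01, adjusted p = 0.00674), while the NF-kappaB subunit NFKB2 fell by 0.52 (adjusted p = 0.0427). Among the 26 BMP and TGF-beta genes ID4, an inhibitor of basic helix-loop-helix factors, fell by 2.35 (adjusted p = 0.023). Of 21 Notch genes, 34 Wnt genes and 18 Hippo genes 0 were called, with medians of -0.25, -0.16 and -0.18. At an unadjusted p under 0.05 they held 10, 17 and 6 genes, and DESeq2 called 7, 11 and 5. The Wnt list had 16 members below the range and 5 above. FABP5, which carries retinoic acid and fatty acids, rose by 1.36 (edgeR adjusted p = 0.0202) among 15 retinoic acid genes, and HOXD3 by 0.60 (edgeR adjusted p = 0.0489) among 11 HOX genes. The medians of the retinoic acid and HOX lists were -0.26 and -0.27, opposite in sign to these rises. Below the range lay 4 and 3 of their members, and above it 3 and 1. Among 25 imprinted genes NDN, a growth suppressor, fell by 2.27 (adjusted p = 0.023), and among 25 p53 targets PHLDA3 rose by 0.70 (adjusted p = 0.0257).

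Lists of the secretory pathway, lipid synthesis and the cell cycle had negative medians and at most 1 call each. Of 25 genes of ER chaperones and the unfolded protein response, 15 were below the wild-type range in all 3 lines and 0 above it, with a median of -0.31 and line medians of -0.35, -0.38 and -0.18. HYOU1, an ER chaperone, had 261 to 271 CPM in wild type and 210, 200 and 224 CPM in the lines (log2 fold change -0.34, edgeR adjusted p = 0.0398). The lectin chaperone CALR had 680 to 692 CPM and 446, 432 and 568 CPM and was not called (-0.51, adjusted p = 0.0565). Of 26 cholesterol and fatty acid genes 13 were below the range and 1 above it, and SCD, which makes monounsaturated fatty acids, fell from 828 to 886 CPM to 486, 519 and 646 CPM (-0.65, adjusted p = 0.0334). SLC38A2, a neutral amino acid transporter, fell by 0.33 (edgeR adjusted p = 0.0334) among 32 amino acid genes, whose median was 0.06. For 38 genes of DNA replication and 29 of mitosis 0 were called, and the medians were -0.12 and -0.19, with 14 and 6 members below the range and 0 above in either. At an unadjusted p under 0.05 stood 13 and 10, and DESeq2 called 5 and 4. The 13 mitochondrially encoded genes had a median of 0.24 and 9 members above the range, and 0 were called (9 at an unadjusted p under 0.05, 6 by DESeq2; MT-CYB, 0.25, edgeR adjusted p = 0.06). The share of counts from these genes differed between the groups as given above.

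Of 55 long mRNAs known as FMRP ligands, 1 was called, the calcium pump ATP2B2 (0.77, edgeR adjusted p = 0.0423), and the median was 0.00 with 10 members above and 13 below the range. At an unadjusted p under 0.05 stood 19 of the 55, and DESeq2 called 11. Over all tested genes edgeR called 1.44%, 25.2% had an unadjusted p under 0.05 and DESeq2 called 10.5%. Of 35 factors and sensitive transcripts of nonsense-mediated decay 0 were called (median -0.09), as were 0 of 40 translation factors (-0.04) and 0 of 27 immediate early genes (-0.02). In 31 glycolysis and hypoxia genes 0 were called and the median was 0.01. For these 4 lists the counts at an unadjusted p under 0.05 were 13, 5, 6 and 7, and DESeq2 called 8, 2, 5 and 4. Markers of Schwann cells and glia (6 tested), of epithelium, endothelium and blood (3 tested), antigen presentation genes (9) and cancer-testis genes (8) held 0 called genes each, with 4, 2, 6 and 3 at an unadjusted p under 0.05 and 2, 1, 5 and 2 called by DESeq2 (25.2% and 10.5% of all genes, as above). PMP22, a myelin protein also found outside glia, had 5.27 to 6.50 CPM in wild type and 25.5, 30.7 and 9.10 CPM in the lines (adjusted p = 0.103), and KRT19 0.957 to 1.24 CPM and 2.99, 4.20 and 1.78 CPM (adjusted p = 0.0674).

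**Figure D4:**
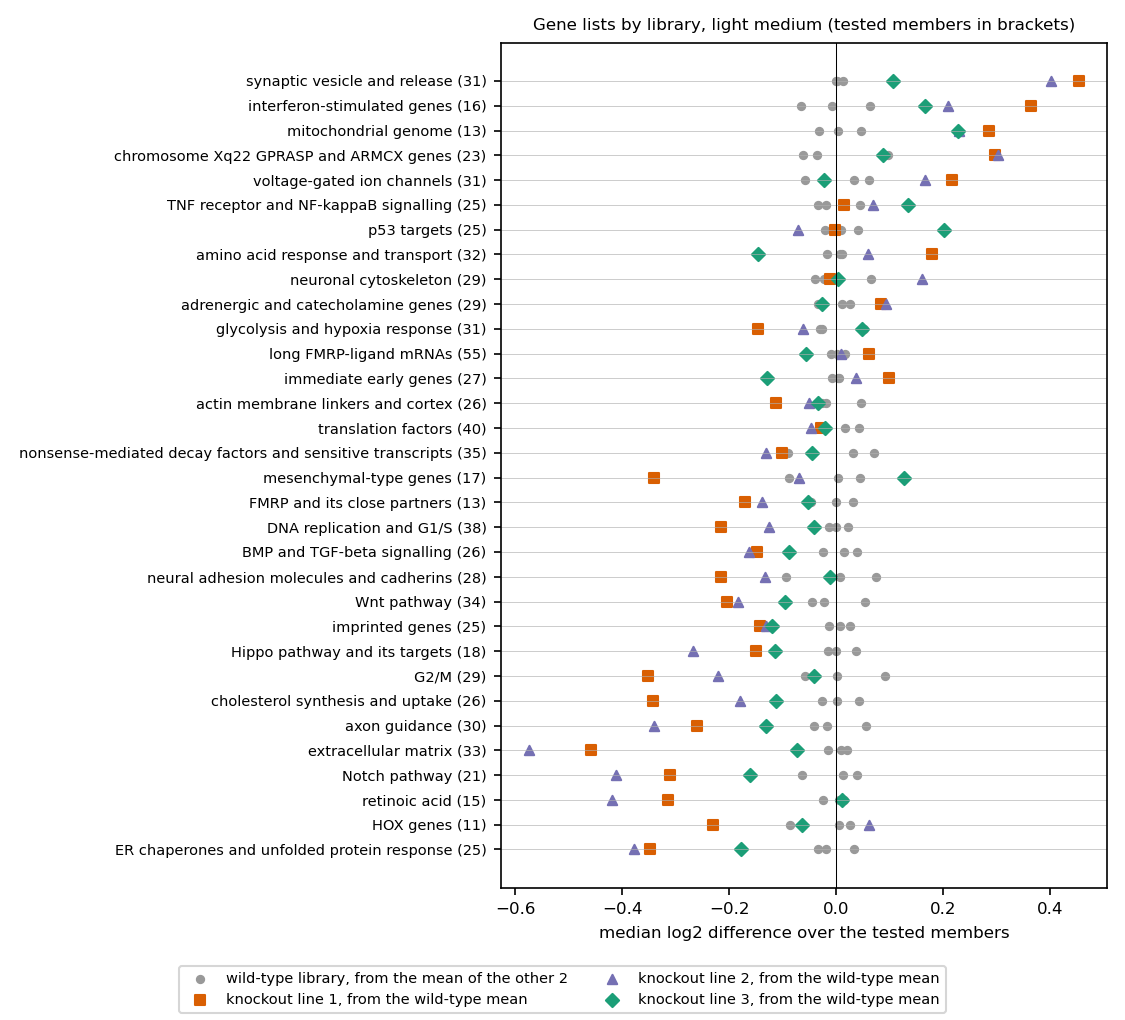
Median log2 difference (x axis) over the tested members of each gene list, for each knockout line from the wild-type mean and for each wild-type library from the mean of the other 2. Synaptic vesicle genes lie to the right in lines 1 and 2 (0.45 and 0.40), and extracellular matrix genes to the left (-0.46 and -0.58), with line 3 nearer to 0 in both.

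Called genes lay throughout the genome. The median difference of a line over the genes of a chromosome stayed within 0.053 (log2) of 0. In 379 blocks of neighbouring tested genes, of 40 genes each or up to 79 at chromosome ends, block medians ran from -0.36 to 0.21 in line 1, from -0.31 to 0.28 in line 2 and from -0.17 to 0.13 in line 3, and 1, 1 and 0 blocks passed 0.3 in size; wild-type libraries ran from -0.14 to 0.14. Copy number was not measured. The 11 called genes on the X chromosome were 5 higher and 6 lower of 502 tested. In 7 of 15645 pairs of neighbouring tested genes both were called, all 7 in the same direction. Beside the GPRASP genes these included SCD with the noncoding OLMALINC, PEPD with CHST8, and RAMP2 with its antisense RAMP2-AS1, which overlap, so that without a stated strand setting their reads cannot be told apart.

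The same lines in heavy medium gave a check on other libraries of the same lines; the media share no libraries but share the 3 lines. Of 16083 genes tested there, 18 were called (0.112%), and 19 without line 1. Of the light calls, 225 could be tested in heavy medium and all 225 had the same sign, beside 81.9% of the 15788 genes tested in both; 16 were called in both, 6.93% of the light calls and 88.9% of the heavy calls. Without heavy line 1 all 225 again had the same sign, and 17 were called in both, 89.5% of those heavy calls. The median size of the log2 fold change of these genes was 0.90 in light and 0.73 in heavy medium. Signed by direction, the median difference was 0.95 in light and 0.53 in heavy medium for line 1, 1.06 and 1.00 for line 2, and 0.67 and 0.54 for line 3. GPRASP2 had a heavy log2 fold change of 3.74 (adjusted p = 0.00895), GPRASP1 4.01 (0.0429), OAS3 1.25 (0.0251), MYD88 0.74 (0.0449) and P2RX5 2.44 (0.0314), all by edgeR. DNAJC15 (2.18, adjusted p = 0.0636) and FMR1 (-1.44, adjusted p = 0.18) were not called there. Without heavy line 1 the values were 2.39 (adjusted p = 0.0193) for DNAJC15 and -1.94 (adjusted p = 0.0613) for FMR1, by edgeR. Of the 12 largest rises 6 were called in heavy medium by edgeR, and 7 without line 1. Of the 12 largest falls 0 were called, with 11 at an unadjusted p under 0.05 and 8 called by DESeq2. Over all genes in heavy medium, 2885 of 16083 had an unadjusted p under 0.05 by edgeR, and DESeq2 called 816. Without line 1 edgeR called 3 of the 12 falls, MSN among them (log2 fold change -5.81, adjusted p = 0.00126). For the interaction of genotype and medium, 0 of 16704 genes were called (0%), both by edgeR and by DESeq2, and 149 had an unadjusted p under 0.05 by edgeR. These fits took the light and heavy libraries of a line as independent, so the spread between lines entered the error. The 0 calls therefore cannot show that the knockout difference is the same in both media. The smallest p belonged to APOC1 (0.0013), ANKRD29 (0.00169) and BTN2A3P (0.00176).

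Line 1 in heavy medium stood apart from line 1 in light medium. In light medium 11 genes had at most 3 counts in lines 1 and 2 and at least 1 CPM in line 3 and in every wild-type library, among them BCHE, which encodes butyrylcholinesterase, MME, the membrane peptidase neprilysin, and ST8SIA1, the sialyltransferase that makes ganglioside GD3. The opposite pattern had 0 genes. BCHE had 196, 248 and 195 counts in wild type, 1 and 0 in lines 1 and 2 and 371 in line 3. In heavy medium line 2 again had 0 to 6 counts in these genes, whereas line 1 had 13 to 133, which is 30.1% to 66.9% of the heavy wild-type mean in CPM (median 48.6%). FMR1 in that library was at 22.5 CPM, 58.4% of the heavy wild-type mean, and TENM1 at 75.3%. The cause was not tested.

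**Figure D5:**
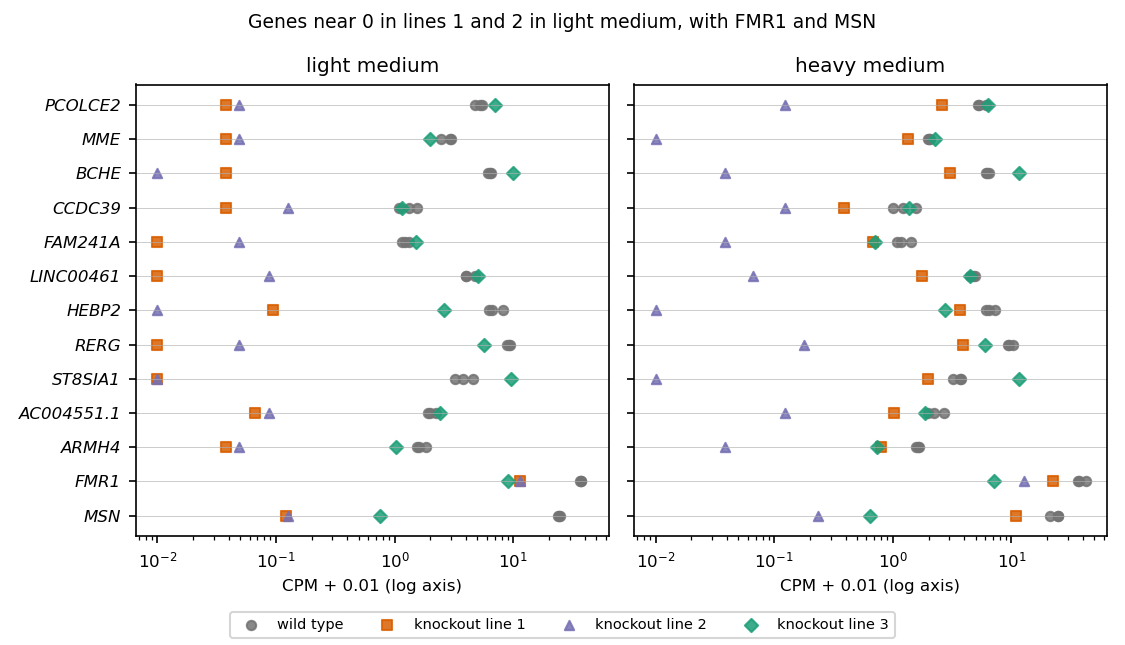
Level plus 0.01 CPM (log axis) of 11 genes near 0 in lines 1 and 2 in light medium, and of FMR1 and MSN, in each library of the light (left) and heavy (right) media. Line 1 (squares) is near 0 for the 11 genes on the left and lies at 30.1% to 66.9% of the heavy wild-type mean on the right, while line 2 is near 0 on both sides.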

How the data were processed

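The data are RNA-seq counts of reads per gene in 12 libraries, of which the 6 from light medium enter the comparison and the 6 from heavy medium stand beside it. Libraries were made from poly(A) RNA with a stranded kit, per the labels' protocols. Bases were called with bcl2fastq 2.19.0, reads aligned with STAR 2.7.0f to GRCh38.p13, and counted with featureCounts of Subread 1.6.4, per the submitters' processing notes. The annotation release, strand setting and handling of multiply matching reads were not given in these sources. This leaves the values of overlapping genes and of close paralogs uncertain. The deposited counts were used as they stand: 59087 features, of which 30126 were at 0 in the 6 light libraries.

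Counts were fitted with edgeR 4.0.16 in R 4.3.3 (TMM, filterByExpr, robust quasi-likelihood F test), with Benjamini-Hochberg adjustment over all genes tested and a threshold of 0.05; the standard error (SE) is the size of the log2 fold change divided by the square root of F. Differences of single lines from wild type are on the log2 CPM scale with a prior count of 2. Alternatives were RLE factors, DESeq2 1.42.0, limma-voom (limma 3.58.1), no filter, at least 1 CPM in 3 libraries, glmTreat against 1.5-fold, 1 spread over all 12 libraries, a replicate block and each library left out. The edgeR fit was also run on simulated counts of 16010 genes. It called 92 of 100 genes changed 2-fold, 100 of 100 changed 4-fold, and 16 unchanged genes. Libraries were drawn independently with the same spread in both groups, without lines 1 and 2 lying closer to each other than to line 3. The simulation therefore cannot show how the fit handles these lines. Positions came from GENCODE 29 by symbol, promoters from RefSeq (GRCh38.p14), whose table matched 67.2% of tested genes and 62.1% of called higher genes, too few for a composition check over the set, which is void. The members and gene lists were chosen with earlier results of these data known. The named genes are FMR1, FXR1 and FXR2, the 12 largest called rises and falls with a mean of at least 1 log2 CPM and groups that do not overlap, the 6 with the smallest p, up to 4 called members of each list or else 1, the 2 largest rises and falls of each line alone, genes with at most 3 counts in 1 group, and 3 for the interaction.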

Additional observations from a re-analysis of the deposited data

How the results depend on the processing

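FMR1 kept its direction and its call in all 14 alternatives run, with log2 fold changes between -1.86 and -1.69, and the interaction stayed at 0 calls under each setting. The count of called genes did not hold. In place of 231 (145 higher, 86 lower), DESeq2 gave 1715 (1025 higher, 690 lower), limma-voom 135 (67 higher, 49.6% of its calls against 62.8%), no filter on low counts 1351 (819 and 532), glmTreat 12 (5 and 7) and 1 spread over all 12 libraries 616 (397 and 219). RLE factors gave 225 and a filter of 1 CPM in 3 libraries 163. Leaving out single libraries gave 4 to 6240 calls, 3 to 3253 higher and 1 to 2987 lower, and all 231 were among the 6240 found without line 3. The heavy fit without line 1, for the overlap and the named genes, was added after seeing the data. In heavy medium, 18 calls became 816 with DESeq2 and 0 to 2243 with 1 library left out. List medians were recomputed with RLE factors, without a filter and with each library left out, and not under the other alternatives. Of these 288 values, 272 moved by less than the SD between lines. That SD is taken over the same line medians, so leaving out 1 line could seldom move a median past it. The count therefore cannot show that the medians are stable. Over single libraries left out, NEXMIF ran from -1.11 to 0.0473 (without line 1), TRIB2 from -0.0054 (without line 2) to 0.935 and LINC02575 from -0.645 to 0.137 (without line 3); each differs in that line alone. The causes of the other shifts were not tested.

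Same-numbered light libraries did not deviate together (r = -0.0422, -0.0908 and -0.0154 across genes). The knockout deviations hold the differences between lines, with a root mean square of 0.377 to 0.639 (log2). Between wild-type libraries it was 0.27 to 0.299. These r values therefore cannot decide whether the numbers pair the libraries. With a replicate block 153 genes were called, 44 of them lower and 116 shared with the unblocked calls, and in heavy medium 94. With 3 libraries a group and 1 knockout library per line, the precision is set by the spread between lines together with that between wild-type libraries, which may be technical. Values under 1 CPM rest on few reads.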

Other observations

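Outside the genes picked by rule, and chosen after their values were seen, called genes included several receptors and transcription factors. GRIN1, the obligatory subunit of NMDA receptors, had 25.0 ± 1.04 CPM (SD, n = 3) in wild type and 56.7 ± 15.5 CPM (SD, n = 3) in the lines (log2 fold change 1.18, edgeR adjusted p = 0.0496). The muscarinic receptor CHRM1 had 7.57 ± 0.918 and 19.2 ± 5.07 CPM (1.34, edgeR adjusted p = 0.0334), and GRIP2, a scaffold of AMPA receptors, 9.52 ± 0.658 and 15.7 ± 2.12 CPM (0.73, edgeR adjusted p = 0.036). Lower in the lines were POU4F2, a sensory-neuron POU factor, at 3.24 ± 0.28 and 0.0804 ± 0.116 CPM (edgeR adjusted p = 0.0198), and the proneural factor NEUROG2, at 2.86 ± 0.697 and 0.523 ± 0.192 CPM (-2.41, edgeR adjusted p = 0.023). The RNA-binding protein HNRNPK, at 1533 CPM on average in wild type and 1070 CPM in the lines, fell by 0.52 on the log2 scale (edgeR adjusted p = 0.023), and DICER1, which processes microRNA precursors, from 78.1 ± 1.49 to 58.4 ± 3.18 CPM (-0.42, edgeR adjusted p = 0.0274). HNRNPK shares sequence with a called pseudogene, HNRNPKP4, so its reads may have been split. Each of these 7 genes was called in 1 or 2 of the 6 fits that leave out a library, with highest adjusted p between 0.195 and 0.253 (edgeR).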
